A study of Homo sapiens with 18 samples.

Results

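The 9 genes CLDN1, CLDN3, CLDN4, CLDN7, CLDN8, OCLN, TJP1, TJP3 and MARVELD2 encode proteins of the tight junction, and their mRNA was followed in 2 human breast cell lines growing in mouse mammary ducts. They were chosen by name, as claudins and other tight junction genes whose symbols stand in the authors' tables of called probe sets, and all 9 were found. They had 17 probe sets of the 54613 tested, and they are 9 of 19141 named genes. CLDN7 and CLDN8 had 1 named probe set each, OCLN had 3 and the other genes had 2. Each gene is described by its brightest probe set, with the others beside it. Because names came from tables of called probe sets, probe sets of a gene that the authors did not call may be missing.

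The study followed the passage of ductal carcinoma in situ (DCIS) to invasion in mouse intraductal (MIND) xenografts. SUM225 cells, which are HER2-positive and lack estrogen and progesterone receptors, or DCIS.COM cells, a basal-like line that lacks all of these receptors, were injected into the ducts of virgin female NSG mice. NSG mice have no T, B or NK cells but keep their own fat, vessels, fibroblasts, myeloid cells and mammary epithelium. Glands were taken 2, 6 and 10 weeks after injection, cells carrying EpCAM were sorted with magnetic beads, and total RNA was hybridized to Affymetrix human arrays. That gave 6 groups of 3 arrays, 18 in all: SUM225 at 2, 6 and 10 weeks and DCIS.COM at 2, 6 and 10 weeks. The labels call the arrays of a group biological replicates. Per the study's methods each one pooled several mice, so that the spread is between pools and not between animals. There was no treatment, no genetic change and no normal epithelium, and each line is a single cell line.

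Tight junctions seal the space between neighboring epithelial cells near their apical side. Claudins and the MARVEL-domain proteins occludin and tricellulin span the membrane, with claudins forming the strands and setting which ions pass and tricellulin sitting where 3 cells meet. The zonula occludens proteins bind the tails of claudins from inside and tie them to actin. Low expression of several claudins defines the claudin-low subtype of breast cancer, and in epithelial mesenchymal transition the SNAI and ZEB repressors shut these genes down.

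Promoter sequences were printed for CLDN1, CLDN3 and CLDN7, the genes called between the lines at 6 and 10 weeks whichever array was left out, and for MARVELD2, called so over time in DCIS.COM. They are the 250 bases before a start site, in RefSeq's GRCh38.p14 annotation, and 8 of the 9 genes were matched, CLDN8 being the exception, with 14 windows in all. Capitals mark each CACCTG on either strand (CAGGTG on the strand shown), the E-box that SNAI and ZEB repressors bind. That motif stood in 17.5% of all 35116 windows of this length, and in 5 of the 14 windows, belonging to 4 genes. The grainyhead-like motif AACCNGTT, also searched on both strands, stood in 1.49% of all windows and in 0 of these 14. A match describes letters and not a bound site. The CLDN7 window at chr17:7262479-7262728 (minus strand) held 4 matches. CLDN7 has a second window, at chr17:7263214-7263463 (minus strand), which held 0 and is not printed. The windows of CLDN1 at chr3:190322447-190322696 (minus strand), CLDN3 at chr7:73770271-73770520 (minus strand) and MARVELD2 at chr5:69414866-69415115 (plus strand) held 0.
CLDN1: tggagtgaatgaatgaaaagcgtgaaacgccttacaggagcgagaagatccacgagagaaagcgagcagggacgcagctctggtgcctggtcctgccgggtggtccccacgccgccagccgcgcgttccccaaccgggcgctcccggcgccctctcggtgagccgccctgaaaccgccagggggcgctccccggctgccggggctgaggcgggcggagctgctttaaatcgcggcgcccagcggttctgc
CLDN3: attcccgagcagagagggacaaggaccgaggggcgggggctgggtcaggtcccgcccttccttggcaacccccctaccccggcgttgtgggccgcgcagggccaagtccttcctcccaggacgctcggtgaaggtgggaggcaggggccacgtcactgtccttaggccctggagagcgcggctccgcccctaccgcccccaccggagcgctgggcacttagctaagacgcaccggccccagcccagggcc
CLDN7: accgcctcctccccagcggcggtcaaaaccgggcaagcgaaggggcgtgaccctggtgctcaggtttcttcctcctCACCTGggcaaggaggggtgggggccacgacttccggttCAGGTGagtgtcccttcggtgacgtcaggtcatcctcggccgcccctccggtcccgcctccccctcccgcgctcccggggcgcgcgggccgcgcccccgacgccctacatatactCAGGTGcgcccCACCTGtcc
MARVELD2: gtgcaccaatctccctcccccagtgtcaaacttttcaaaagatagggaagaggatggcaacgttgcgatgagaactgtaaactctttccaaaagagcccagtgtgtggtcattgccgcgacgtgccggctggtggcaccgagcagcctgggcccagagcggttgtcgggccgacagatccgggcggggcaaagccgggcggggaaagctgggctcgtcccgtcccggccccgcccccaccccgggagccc

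All values below are log2 intensities of the deposited table, and a difference of 1 is a factor of 2. Levels of different probe sets were not compared. Groups were compared with limma on the arrays of both groups, with p-values adjusted by Benjamini-Hochberg over all 54613 probe sets, and a gene was called at an adjusted p under 0.05. Errors of differences are standard errors (n = 3 arrays a group).

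One group stood apart before any junction gene was read. EPCAM, on which the cells were sorted, was at 12.73, 11.72 and 8.59 in replicates 1, 2 and 3 of the SUM225 2-week arrays and between 12.11 and 13.04 on the other 15. ERBB2, the HER2 gene amplified in such lines, was at 12.42, 11.32 and 9.21 in the same arrays and between 12.46 and 12.68 in later SUM225 arrays. The median of 10 carcinoma epithelium markers was 11.54, 10.14 and 7.75 on these arrays, while that of 15 leukocyte markers was 5.90, 6.17 and 6.83 and that of 9 fibroblast markers 6.76, 7.39 and 7.68. Replicates 2 and 3 thus had the lower epithelial and the higher leukocyte and fibroblast marker values. The adipocyte markers (5.87, 6.30 and 6.55), the erythroid markers (6.04, 6.54 and 7.01) and the median of all probe sets (5.61, 5.76 and 5.84) rose in the same order. The host is mouse and the arrays are human, and what these marker probe sets read was not tested. The 3 arrays correlated with each other at 0.760 to 0.926 over all probe sets, and replicates of the other groups at 0.966 or more. DCIS.COM 2-week replicate 1 differed from its group the other way, with an epithelial median of 11.59, against 10.48 and 10.54 in replicates 2 and 3. The genes called since 2 weeks in SUM225 by the probe sets described here are therefore also given without replicates 2 and 3, dimmer probe sets excepted, which leaves 1 array that is assumed to vary like the later group. In bulk RNA a smaller share of carcinoma cells and less mRNA per cell cannot be told apart.

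**Figure D1:**
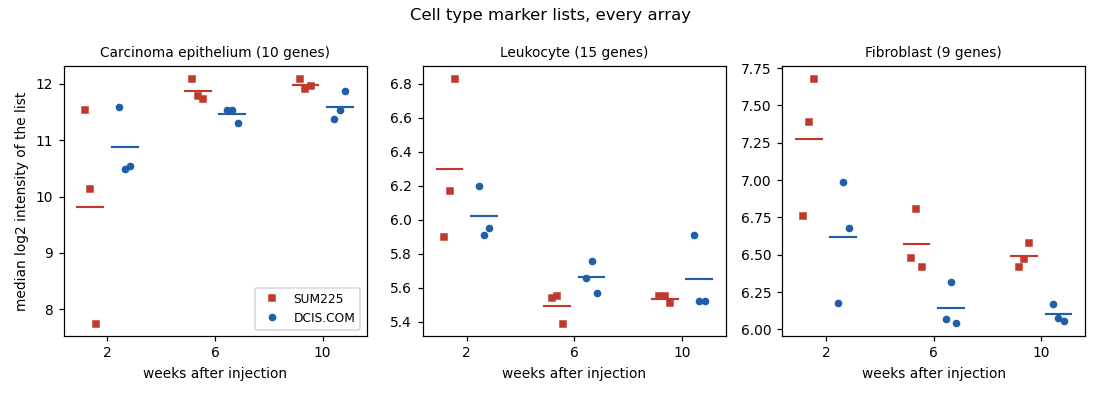
Median log2 intensity of 3 marker lists (y axis) in every array by weeks after injection (x axis), with SUM225 as squares left of DCIS.COM as circles and lines at group means. The epithelial median spans 7.75 to 11.54 in SUM225 2-week arrays, where the leukocyte and fibroblast medians reach 6.83 and 7.68.

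The clearest differences lay between the lines. At 6 weeks, 6 of the 9 genes differed in SUM225 against DCIS.COM, 1 higher and 5 lower, where 37.0% of all named genes were called. CLDN3 was higher in SUM225, and CLDN1, CLDN7, OCLN, TJP1 and CLDN4 were lower. At 10 weeks it was 1 higher and 4 lower, with CLDN4 no longer called, and the background was 32.2%. The median difference of the 9 genes was -0.54 at 6 weeks and -0.47 at 10 weeks, against 0.02 and -0.01 over all named genes.

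CLDN3, a sealing claudin of glandular epithelium, was the 1 gene with more mRNA in SUM225. Its values were 9.93, 8.54 and 9.85 in the 6-week SUM225 arrays, against 6.52, 6.74 and 6.50 in the 6-week DCIS.COM arrays. At 10 weeks they were 10.19, 9.45 and 10.11 in SUM225, against 6.67, 6.24 and 6.38 in DCIS.COM. All SUM225 arrays lay above all DCIS.COM arrays, also at 2 weeks. The difference was 2.85 ± 0.31 at 6 weeks (adjusted p = 9.5e-05, limma) and 3.49 ± 0.21 at 10 weeks (adjusted p = 3.3e-06), which is 7.22-fold and 11.2-fold. Its other probe set, 203953_s_at, differed by 1.86 (adjusted p = 2.7e-04) and 2.35 (adjusted p = 2.9e-06).

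CLDN7, a claudin of the basolateral membrane that binds EpCAM, went the other way. It read 7.91, 8.08 and 8.10 in SUM225 at 6 weeks, against 9.48, 9.16 and 9.30 in DCIS.COM. At 10 weeks it read 7.77, 7.94 and 7.73 in SUM225, against 9.27, 9.44 and 9.73 in DCIS.COM. The lines did not overlap at either time, nor did they at 2 weeks. SUM225 was lower by a difference of -1.28 ± 0.12 at 6 weeks (adjusted p = 3.6e-05) and -1.66 ± 0.15 at 10 weeks (adjusted p = 4.4e-05).

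CLDN1, a sealing claudin that the epidermal barrier needs, was also lower in SUM225. It stood at 9.66, 9.23 and 8.67 in SUM225 at 6 weeks, against 10.94, 10.65 and 11.36 in DCIS.COM. At 10 weeks it stood at 10.02, 9.0 and 8.83 in SUM225, against 11.72, 11.32 and 11.29 in DCIS.COM. Every SUM225 array was below every DCIS.COM array. The difference was -1.80 ± 0.25 at 6 weeks (adjusted p = 4.4e-04) and -2.16 ± 0.29 at 10 weeks (adjusted p = 4.3e-04). The second probe set, 218182_s_at, was called at 10 weeks only (-0.87, adjusted p = 0.031), with -0.49 (adjusted p = 0.3) at 6 weeks. CLDN1, CLDN3 and CLDN7 stayed called at both times when any 1 array was left out.

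Occludin (OCLN), the first membrane protein known in these junctions, was at 9.39, 8.88 and 8.58 in SUM225 at 6 weeks, against 10.01, 9.79 and 10.01 in DCIS.COM. At 10 weeks it was at 9.66, 8.79 and 8.88 in SUM225, against 9.76, 10.19 and 10.15 in DCIS.COM. The lines were apart at both times, by a narrow gap at 10 weeks. Differences were -0.99 ± 0.19 (adjusted p = 0.0032) and -0.92 ± 0.23 (adjusted p = 0.016). Of its other probe sets, 231022_at was called lower at both times (-1.31 and -1.14), and 209925_at at neither (-0.32 and -0.29). The 10-week call was lost without DCIS.COM replicate 2 or without SUM225 replicate 2 or 3.

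TJP1 (ZO-1), the scaffold that binds claudins and occludin, read 9.91, 9.97 and 9.99 in SUM225 at 6 weeks, against 10.40, 11.02 and 10.36 in DCIS.COM. At 10 weeks it read 10.22, 9.46 and 9.49 in SUM225, against 10.93, 10.34 and 10.54 in DCIS.COM. The lines did not overlap. The differences were -0.64 ± 0.17 (adjusted p = 0.018) and -0.88 ± 0.23 (adjusted p = 0.019). With 1 array left out they lay between -0.75 and -0.43 at 6 weeks and between -1.13 and -0.72 at 10 weeks. The call was lost at 6 weeks without SUM225 replicate 2, and at 10 weeks without DCIS.COM replicate 1 or SUM225 replicate 2 or 3. Its other probe set, 214168_s_at, was not called at 6 weeks, where its arrays overlapped (-0.46, adjusted p = 0.078). At 10 weeks it was called lower in SUM225 (-0.67, adjusted p = 0.0074).

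CLDN4, which limits sodium passage, differed less. It was at 9.40, 9.59 and 9.41 in SUM225 at 6 weeks, against 9.91, 9.87 and 10.25 in DCIS.COM (-0.54 ± 0.13, adjusted p = 0.011). At 10 weeks it was at 9.59, 9.59 and 9.67 in SUM225, against 9.84, 9.87 and 10.55 in DCIS.COM, and the difference of -0.47 was not called (adjusted p = 0.11). The lines did not overlap at either time. Its dimmer probe set, 1569421_at, was called at neither time (-0.05, adjusted p = 0.84, and -0.24, adjusted p = 0.28), and its 6-week arrays overlapped.

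CLDN8, MARVELD2 and TJP3 were not called between the lines. The 95% intervals of the difference at 6 weeks were -0.24 to 0.49 for CLDN8, -0.06 to 0.39 for MARVELD2 and -0.09 to 0.43 for TJP3. At 10 weeks the intervals were -0.78 to 0.42 for CLDN8 and -0.31 to 0.30 for MARVELD2. TJP3 differed at 10 weeks by 0.39 (interval 0.05 to 0.73), with arrays that did not overlap and an adjusted p of 0.091. Of their second probe sets, that of MARVELD2 (235955_at) was higher in SUM225 at 6 weeks (0.67, adjusted p = 0.0022). TJP3 (ZO-3), the epithelial member of the ZO family, stayed between 6.39 and 7.23 on all 18 arrays.

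At 2 weeks none of the 9 was called between the lines, where 2.45% of named genes were. For 5 genes the arrays did not overlap, as they did not for 22.5% of named genes. CLDN1 was at 9.87, 7.98 and 6.53 in SUM225 and at 11.32, 10.58 and 10.78 in DCIS.COM, and CLDN3 at 9.15, 8.45 and 8.02 in SUM225 and at 6.84, 7.20 and 7.08 in DCIS.COM. The wide spread in SUM225 follows the order of the epithelial markers on its 3 arrays. Their part in the result was not tested. With SUM225 replicates 2 and 3 left out, CLDN3 was called at 2 weeks too (2.10, adjusted p = 0.0053), and CLDN1 differed by -1.02 (adjusted p = 0.17) in place of -2.77.

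**Figure D2:**
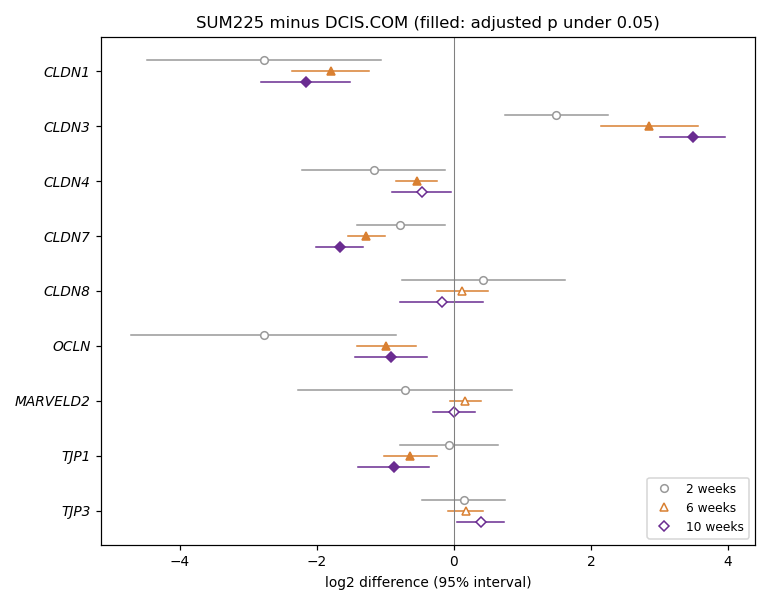
Difference of SUM225 minus DCIS.COM in log2 intensity (x axis, with 95% intervals) for the 9 genes (y axis) at 2, 6 and 10 weeks, filled where the adjusted p was under 0.05. CLDN3 reaches 3.49 at 10 weeks, while CLDN1 and CLDN7 lie at -2.16 and -1.66.

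Over time, all calls were against the 2-week arrays. Between 6 and 10 weeks 0 of the 9 genes were called in either line, where 0.00522% of named genes were called in SUM225 and 0.0157% in DCIS.COM. At an unadjusted p under 0.05, 0 genes passed in SUM225 and CLDN1 and CLDN8 passed in DCIS.COM. The other OCLN probe sets passed in SUM225 without overlap, 209925_at with 0.52 (unadjusted p = 0.0011, adjusted p = 0.24 by limma) and 231022_at with 0.37 (unadjusted p = 0.012, adjusted p = 0.51). SAM, the permutation method named in the study's methods and run here as an alternative, called 0 in both lines. In DCIS.COM at 6 against 2 weeks, CLDN8, MARVELD2 and CLDN7 rose and TJP1 and CLDN3 fell, so that 5 of 9 were called where 42.6% of named genes were. The same 5 genes moved the same way at 10 against 2 weeks, where the background was 37.0%. These shares lie near the background. The comparisons share the 2-week arrays. At 10 against 2 weeks in DCIS.COM the dimmer CLDN1 probe set, 218182_s_at, was called (0.84, adjusted p = 0.043), and the brightest was not (0.55, adjusted p = 0.084).

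CLDN8, a claudin best known from the kidney's collecting duct, had the largest rise of the 9 in DCIS.COM. Its values were 6.45, 4.71 and 5.25 at 2 weeks, 7.73, 7.86 and 8.11 at 6 weeks and 8.15, 8.49 and 8.70 at 10 weeks. Each later array exceeded each 2-week array, and the 10-week arrays also exceeded the 6-week arrays. The change was 2.43 ± 0.37 at 6 weeks (5.39-fold, adjusted p = 0.0054) and 2.98 ± 0.38 at 10 weeks (7.86-fold, adjusted p = 0.0043). The step from 6 to 10 weeks, 0.55 ± 0.17, had an unadjusted p of 0.012 and an adjusted p of 1 by limma. CLDN8 stayed called at both times without any 1 array, and at 1.84 (adjusted p = 0.0037) and 2.25 (adjusted p = 2.2e-04) when arrays were centered on the epithelial markers.

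In SUM225 CLDN8 followed nearly the same course. It was at 6.72, 5.39 and 5.59 at 2 weeks, 7.80, 7.92 and 8.34 at 6 weeks and 7.64, 8.73 and 8.44 at 10 weeks. Again no 2-week array reached a later one. The change was 2.12 ± 0.37 at 6 weeks (4.34-fold, adjusted p = 0.037) and 2.36 ± 0.43 at 10 weeks (5.15-fold, adjusted p = 0.02). Without 2-week replicates 2 and 3 it was 1.30 (adjusted p = 0.017) and 1.54 (adjusted p = 0.029). The difference between the lines in the change at 6 weeks was -0.31, with an interval of -1.61 to 0.99. Once arrays were centered on the epithelial markers, the CLDN8 change in SUM225 was 0.06 at 6 weeks and 0.20 at 10 weeks, with adjusted p of 0.97 and 0.91.

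MARVELD2 (tricellulin) in DCIS.COM was at 8.51, 8.34 and 8.58 at 2 weeks, 9.47, 9.50 and 9.49 at 6 weeks and 9.48, 9.55 and 9.82 at 10 weeks. It rose by 1.01 ± 0.14 (2.01-fold, adjusted p = 0.0038) and 1.14 ± 0.16 (2.21-fold, adjusted p = 0.0056). The later arrays lay close together and all above those of 2 weeks. The calls stood without any 1 array, but centering on the epithelial markers left 0.42 at 6 weeks (adjusted p = 0.43) and 0.42 at 10 weeks (adjusted p = 0.45). In SUM225 it was at 9.25, 7.89 and 6.16 at 2 weeks, 9.59, 9.63 and 9.72 at 6 weeks and 9.56, 9.60 and 9.69 at 10 weeks. Its 6-week difference there, 1.88 ± 0.68, was not called (adjusted p = 0.056), and without replicates 2 and 3 it was 0.40 (adjusted p = 0.096). The 2-week values fall in the order of the epithelial markers, whose part was not tested. The dimmer MARVELD2 probe set, 235955_at, was called in DCIS.COM at 6 weeks (0.65, adjusted p = 0.02) but not at 10 weeks (0.77, adjusted p = 0.19). In SUM225 it was not called at 6 weeks (1.07, adjusted p = 0.057) and was called at 10 weeks (1.12, adjusted p = 0.047).

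CLDN7 rose in DCIS.COM, where it was at 8.79, 8.28 and 8.37 at 2 weeks. The change was 0.83 ± 0.18 at 6 weeks (adjusted p = 0.013) and 1.0 ± 0.20 at 10 weeks (adjusted p = 0.013). No later array overlapped the 2-week ones. Centered on the epithelial markers, the changes were 0.24 (adjusted p = 0.67) and 0.28 (adjusted p = 0.63). In SUM225 its values of 7.88, 7.96 and 7.28 at 2 weeks overlapped the later ones, and it was not called. CLDN3 fell in DCIS.COM by a difference of -0.46 ± 0.15 (adjusted p = 0.049) and -0.62 ± 0.18 (adjusted p = 0.036). Its probe set 203953_s_at was not called there at 6 weeks (-0.54, adjusted p = 0.14) and was called at 10 weeks (-0.97, adjusted p = 0.013). In DCIS.COM the calls of CLDN7, CLDN3 and TJP1 each failed without at least 3 of the 6 single arrays, 2-week replicate 3 among them every time. In SUM225 CLDN3 rose at 10 weeks by 1.38 ± 0.35 (adjusted p = 0.027), a call that its probe set 203953_s_at did not share (0.09, adjusted p = 0.84) and that was lost without 2-week replicates 2 and 3 (0.77, adjusted p = 0.087). Centering on the epithelial markers turned it to -0.79 (adjusted p = 0.6). The line difference in the CLDN3 change at 6 weeks was 1.36 ± 0.50, with an adjusted p of 0.32.

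CLDN4 was called in SUM225 alone, though the lines' changes did not differ by test (0.63 ± 0.51, adjusted p = 0.47). It was at 8.81, 8.38 and 7.59 in SUM225 at 2 weeks, all below its later values, and rose by 1.21 ± 0.32 at 6 weeks (adjusted p = 0.039) and 1.36 ± 0.32 at 10 weeks (adjusted p = 0.025). Without 2-week replicates 2 and 3 the rise was 0.66 (adjusted p = 0.036) and 0.81 (adjusted p = 0.017). With arrays centered on the epithelial markers its sign turned, to -0.85 at 6 weeks (adjusted p = 0.57) and -0.81 at 10 weeks (adjusted p = 0.59). In DCIS.COM it was at 10.30, 8.96 and 9.04 at 2 weeks, with replicate 1 above most later arrays. Without that replicate, CLDN4 was called at 6 weeks (1.01, adjusted p = 0.0022), as was OCLN (0.53, adjusted p = 0.019). Leaving it out keeps the 2-week arrays with epithelial marker medians of 10.48 and 10.54, against 11.31 to 11.54 at 6 weeks. With all arrays in and centered on the epithelial markers, the DCIS.COM changes at 6 weeks were -0.01 for CLDN4 (adjusted p = 0.98) and -0.53 for OCLN (adjusted p = 0.31). The part of the marker levels was not tested.

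In SUM225, CLDN8 and CLDN4 rose and TJP1 fell at 6 against 2 weeks, 3 of 9 where 48.2% of named genes were called. At 10 weeks CLDN3 joined them, making 4 of 9 where 58.7% were called. All 3 calls of 6 weeks were lost without any 1 array other than 2-week replicate 1, and without that array 7 genes were called. Leaving it out keeps the 2-week arrays with epithelial marker medians of 10.14 and 7.75. The share of all named genes called in that fit is not given here. At 10 weeks 0 to 7 genes were called without 1 array, with 0 when 2-week replicate 2 or 10-week replicate 2 or 3 was left out and 7 without 2-week replicate 1. OCLN, at 9.02, 6.82 and 5.47 at 2 weeks, differed by 1.85 ± 0.79 at 6 weeks without a call (adjusted p = 0.084). Without replicates 2 and 3 that difference was -0.07. Its probe set 209925_at was called at 6 and 10 weeks (1.83 and 2.34). CLDN1 was not called in SUM225, and without these replicates its difference was -0.69 at 6 weeks (adjusted p = 0.17). With both replicates left out, the calls at 6 weeks were CLDN4, CLDN8, TJP1 and TJP3 (0.67, adjusted p = 0.04).

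**Figure D3:**
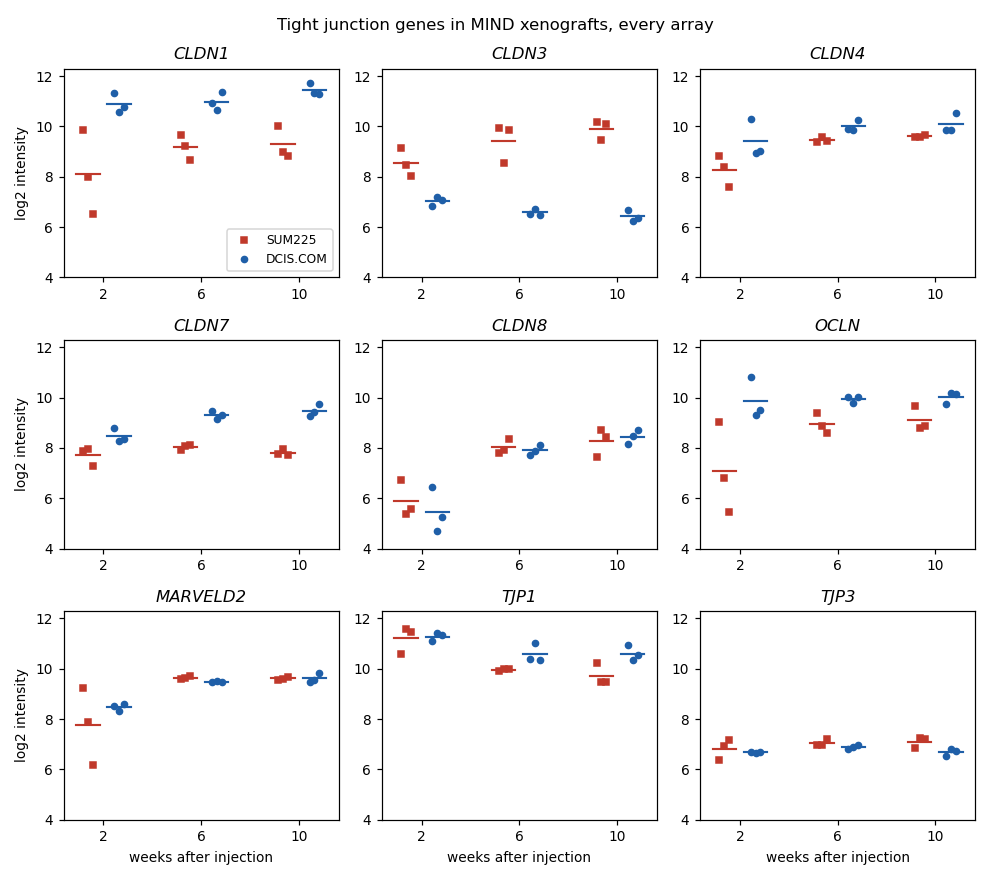
Log2 intensity (y axis) of the brightest probe set of each gene in every array by weeks after injection (x axis), with SUM225 as squares left of DCIS.COM as circles and lines at group means. CLDN8 climbs in both lines, and CLDN3 in SUM225 lies above DCIS.COM at all 3 times.

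**Figure D4:**
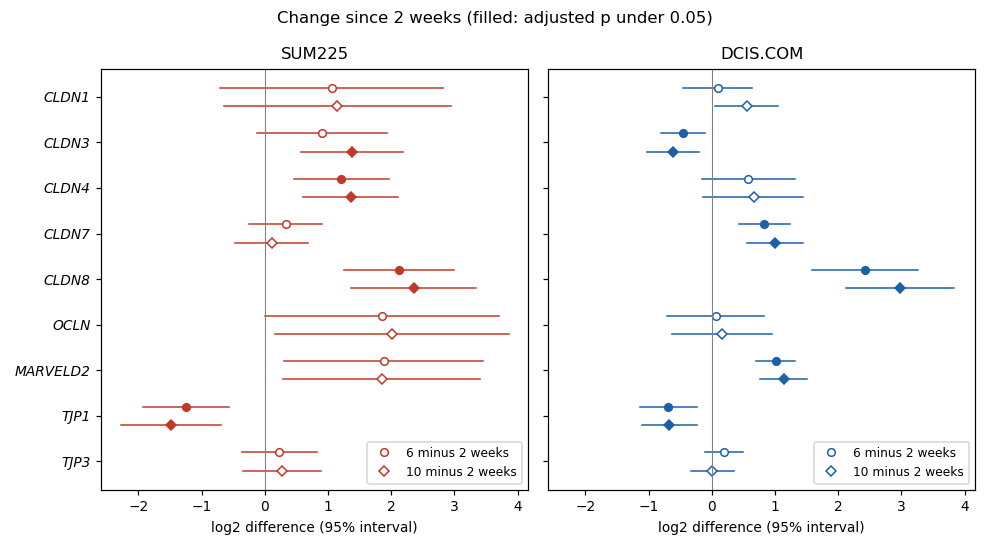
Change since 2 weeks in log2 intensity (x axis, with 95% intervals) for each gene (y axis) in SUM225 on the left and DCIS.COM on the right, filled where the adjusted p was under 0.05. Intervals are wider in SUM225, and CLDN8 is filled at both times in both lines, from 2.12 to 2.98.

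For 2 genes the probe sets disagreed. TJP1 fell by its brightest probe set, 202011_at, which in DCIS.COM was at 11.11, 11.41 and 11.32 at 2 weeks and gave -0.69 ± 0.20 at 6 weeks (adjusted p = 0.031) and -0.68 ± 0.19 at 10 weeks (adjusted p = 0.034). Its dimmer probe set 214168_s_at rose over the same arrays, by 0.80 (adjusted p = 0.028) and 1.03 (adjusted p = 0.017). In SUM225 202011_at was at 10.59, 11.58 and 11.44 at 2 weeks and fell by a difference of -1.25 ± 0.29 and -1.48 ± 0.34 (adjusted p = 0.038 and 0.025). Without 2-week replicates 2 and 3 these were -0.64 (adjusted p = 0.032) and -0.87 (adjusted p = 0.07), so that the 10-week call was lost. In the same line 214168_s_at differed by 0.90 (adjusted p = 0.053) and 0.92 (adjusted p = 0.04). The direction of TJP1 over time is thus that of a probe set and not of the gene, and which part of the transcript each one reads was not examined.

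The probe sets of CLDN4 split in the same manner in SUM225. Against the rise of 201428_at, the dim 1569421_at was at 6.48, 6.72 and 7.05 at 2 weeks, 5.70, 5.85 and 5.42 at 6 weeks and 5.52, 5.53 and 5.56 at 10 weeks. It fell by a difference of -1.09 (adjusted p = 0.038) and -1.21 (adjusted p = 0.021), and in DCIS.COM by -0.59 at 6 weeks (adjusted p = 0.023). Over the 18 arrays the 2 probe sets correlated at -0.74 for CLDN4 and -0.44 for TJP1, and those of the other genes at 0.32 to 0.92. Over 16 arrays, without SUM225 2-week replicates 2 and 3, they correlated at -0.40 for CLDN4, -0.14 for TJP1 and 0.15 for TJP3, against 0.32 for TJP3 over all 18. These arrays share groups, and the coefficients are a description.

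**Figure D5:**
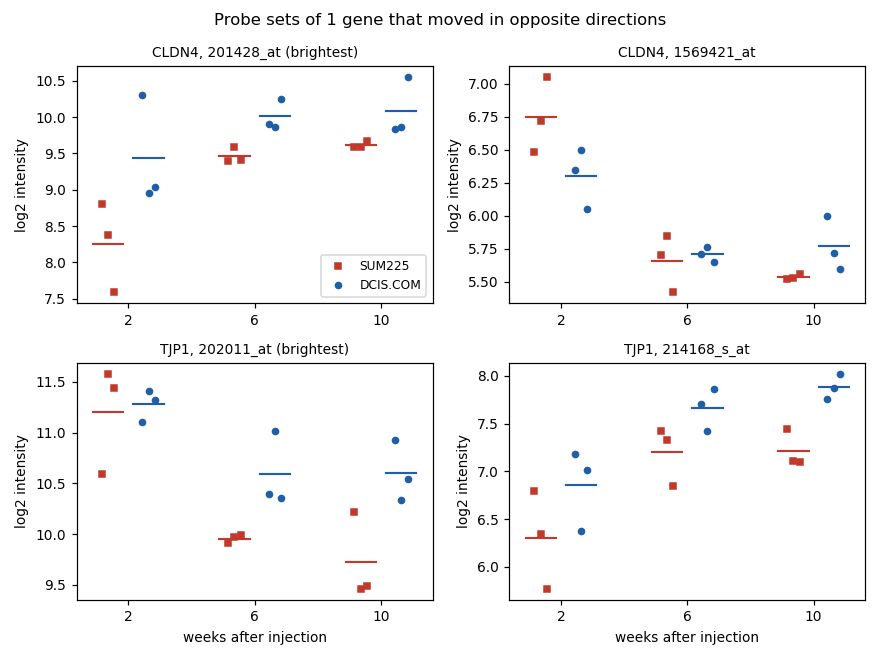
Log2 intensity (y axis, scaled to each panel) of both probe sets of CLDN4 and TJP1 in every array by weeks after injection (x axis), with SUM225 as squares left of DCIS.COM as circles and lines at group means. The brightest probe sets are on the left, and the dimmer ones on the right move the opposite way after 2 weeks.

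None of the 9 genes was called for a difference between the lines in their change, at 6 against 2 weeks (1.24% of named genes called) or at 10 against 6 weeks (0.0209%). At an unadjusted p under 0.05, only CLDN3 passed for 6 against 2 weeks and 0 genes for 10 against 6 weeks. Without SUM225 2-week replicate 1, 5 genes were called for 6 against 2 weeks (CLDN1, CLDN3, OCLN, TJP1 and MARVELD2). That fit keeps only replicates 2 and 3 of the group, with epithelial marker medians of 10.14 and 7.75, against 11.54 in replicate 1. The part of these levels was not tested, and the share of all named genes called in that fit is not given here.

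By order of group means, CLDN1, CLDN7 and OCLN were highest in the DCIS.COM groups and lower in all SUM225 groups. CLDN3 had the opposite order of the lines, highest in the SUM225 groups and lower in all DCIS.COM groups. Between neighbors in these orders, the CLDN1 arrays overlapped except between DCIS.COM at 2 weeks and SUM225 at 10 weeks, and OCLN arrays overlapped between all neighbors. CLDN7 arrays did not overlap between DCIS.COM at 6 and 2 weeks, nor between DCIS.COM at 2 weeks and SUM225 at 6 weeks. CLDN8 was lowest in both 2-week groups, with a gap between these and all later groups. Across the 18 arrays CLDN8 and MARVELD2 correlated at 0.79 (0.94 over 16 arrays without SUM225 2-week replicates 2 and 3), CLDN1 and OCLN at 0.92 (0.88) and CLDN3 and CLDN7 at -0.82 (-0.90). Among 11530 named genes with a mean of at least 6, those most like CLDN8 over the 18 arrays were NFS1, ZSCAN16 and C11orf30 (0.96 to 0.97). Those most like CLDN3 were GSTM3, TMEM45B and ALDH2 (0.97 to 0.98), and those most like CLDN7 were SAT2, S100A13 and RAB9A (0.97 to 0.98).

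Of 16 other claudins, 1 rose and 10 fell in SUM225 at 6 against 2 weeks, where 48.2% of all named genes were called, and 2 rose and 8 fell in DCIS.COM, where 42.6% were. The median difference was -0.83 in SUM225 and -0.50 in DCIS.COM, against -0.38 and -0.14 over all named genes. Over the same weeks the median difference of the fibroblast markers was -0.99 in SUM225 and -0.43 in DCIS.COM, and that of the leukocyte markers -0.85 and -0.58, and their part was not tested. Without SUM225 2-week replicates 2 and 3, 0 of the 16 rose and 3 fell, with a median of -0.37. CLDN12, a claudin without the usual PDZ-binding tail, rose in both lines, by 1.95 ± 0.60 in SUM225 (adjusted p = 0.043) and 1.21 ± 0.21 in DCIS.COM (adjusted p = 0.0079). Without those replicates its SUM225 change was 0.49 (adjusted p = 0.13). CLDN5, the claudin of endothelium, fell in SUM225 (-1.12, adjusted p = 0.038, and -0.63, adjusted p = 0.044, without those replicates), where the endothelial marker median was 5.20 to 5.52 at 6 weeks, against 5.76, 6.15 and 6.74 at 2 weeks. CLDN5 is itself among the 12 markers of that list, and the fibroblast and leukocyte markers fell over the same weeks. The part of endothelial RNA was not tested.

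Of 28 other plaque and polarity genes, 9 rose and 4 fell in SUM225 at 6 weeks, and 12 rose and 3 fell in DCIS.COM, where the shares of all named genes called were again 48.2% and 42.6%. In SUM225 7 rose and 1 fell without replicates 2 and 3. CGNL1 (paracingulin), which links junctions to actin and microtubules, rose by 2.71 ± 0.49 in SUM225 (adjusted p = 0.037) and 1.67 ± 0.34 in DCIS.COM (adjusted p = 0.012). Without the replicates its SUM225 change was 1.56 (adjusted p = 0.0096). VAPA, a membrane trafficking protein that binds occludin, fell in both lines, by a difference of -0.99 in SUM225 (-0.56 without the replicates, adjusted p = 0.045) and -0.71 in DCIS.COM. Between the lines at 6 weeks 2 of the 28 were higher and 13 lower in SUM225, where 37.0% of all named genes were called.

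Among 10 other membrane proteins of the junction, 2 rose and 1 fell in SUM225 and 3 rose and 2 fell in DCIS.COM, where 48.2% and 42.6% of all named genes were called. CXADR, the adhesion receptor that coxsackievirus and adenovirus use, rose in both, by 2.34 ± 0.73 in SUM225 (adjusted p = 0.044) and 1.20 ± 0.28 in DCIS.COM (adjusted p = 0.017). In SUM225 its change without replicates 2 and 3 was 0.76 (adjusted p = 0.059). Of 9 claudin partners and their proteases, 2 rose in SUM225 and 3 in DCIS.COM, and 0 fell. CD9, a tetraspanin that binds claudins, rose by 2.78 ± 0.92 in SUM225 (adjusted p = 0.048) and 1.35 ± 0.16 in DCIS.COM (adjusted p = 0.0025), and by 0.63 in SUM225 (adjusted p = 0.042) without these replicates. Of 12 adherens junction genes, 4 rose and 1 fell in each line, and CDH1 (E-cadherin) was not called in either (1.89 in SUM225 and 0.02 in DCIS.COM, adjusted p = 0.11 and 0.94).

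Of 11 epithelial activators, 4 rose and 0 fell at 6 weeks in each line, where 48.2% of named genes were called in SUM225 and 42.6% in DCIS.COM. In SUM225 1 of the 11 rose without replicates 2 and 3. GRHL2, which activates claudin and CDH1 genes in epithelium, was at 9.15, 9.25 and 9.27 in SUM225 at 6 weeks, against 8.38, 7.02 and 5.85 at 2 weeks. The DCIS.COM arrays had 7.27, 7.51 and 7.34 at 6 weeks, against 6.60, 6.32 and 6.27 at 2 weeks. The SUM225 2-week values fall in the order of the epithelial markers, whose part was not tested. GRHL2 rose by 2.14 ± 0.56 in SUM225 (adjusted p = 0.038, and 0.85, adjusted p = 0.018, without replicates 2 and 3) and 0.98 ± 0.15 in DCIS.COM (adjusted p = 0.0057), and was higher in SUM225 at 6 weeks by 1.85 ± 0.11 (adjusted p = 1.9e-06).

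Of the 6 repressors, 0 rose and 3 fell in SUM225 at 6 against 2 weeks, and 1 rose and 3 fell in DCIS.COM. Of all named genes 48.2% were called in SUM225 and 42.6% in DCIS.COM, with median differences of -0.38 and -0.14. Without replicates 2 and 3, 0 were called in SUM225, with ZEB1 at -0.49, SNAI1 at -0.36 and TWIST2 at -0.35 (adjusted p = 0.072, 0.11 and 0.12). ZEB1 and SNAI1 fell in both lines, TWIST2 in SUM225 (-0.89, adjusted p = 0.048) and ZEB2 in DCIS.COM (-2.20 ± 0.56, adjusted p = 0.022). At 6 weeks ZEB1 averaged 4.82 in DCIS.COM and 4.62 in SUM225, SNAI1 5.05 and 5.36, and TWIST2 3.36 in SUM225. These means lay below the medians of all probe sets on the 6-week arrays (5.42 to 5.51). At 2 weeks SNAI1 in SUM225 was at 6.20, above its array medians (5.61 to 5.84), and TWIST2 there was at 4.26. Whether the falls of ZEB1, SNAI1 and TWIST2 exceed background was not tested. ZEB2 is also expressed by leukocytes, whose marker median was 5.57 to 5.76 at 6 weeks in DCIS.COM, against 5.91 to 6.20 at 2 weeks, and the part of leukocyte RNA was not tested. TWIST1 rose in DCIS.COM by 0.96 ± 0.20 (adjusted p = 0.012). SNAI2 (SLUG) was at 3.47, 3.47 and 3.41 in SUM225 at 6 weeks, against 5.98, 6.85 and 7.39 in DCIS.COM, a difference of -3.28 ± 0.29 (adjusted p = 2.1e-05). SNAI2 is known as a gene of basal mammary cells.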

How the data were processed

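Human Affymetrix arrays were measured for 18 samples in 6 groups of 3. The authors' deposited table holds log2 intensities per probe set, with 0 missing values and 0 columns left unused. The submitters' processing notes name RMA and Partek, with no version. The genome build is not given in the sources used here. The authors' tables of called probe sets also hold a fold change from SAM and a q-value in percent, which were not used, and they gave 1 symbol to 36787 probe sets. Values were used as deposited, without 62 Affymetrix controls. Groups were compared with limma 3.58.1 in R 4.3.3 on 6 arrays (12 for the 2 line differences in change), with Benjamini-Hochberg adjustment over 54613 probe sets and a threshold of 0.05. Python 3.11.15 with pandas 2.3.3, numpy 2.4.6 and scipy 1.17.1 made the tables, and matplotlib 3.10.9 the plots. The fits were tested on simulated data. Precision is limited by the array number, and 0.1 is the smallest exact permutation p that 3 against 3 can give.

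The members, gene lists and alternatives were chosen with earlier results of these data known. All members were named. Of the other junction lists, the rule takes for 6 against 2 weeks the 3 largest rises and falls per line among called genes whose arrays did not overlap and whose higher mean was at least 6, plus all repressors, GRHL2, EPCAM and CDH1, and the text names a part of these. Alternatives were other scalings, a minimum mean of 5, 1 fit of all arrays, a variance trend, SAM (20 permutations, all that exist, and a false discovery rate under 5%), the replicate number as a block, other choices of probe set and arrays left out. Leaving out SUM225 2-week replicates 2 and 3 for the other junction lists was chosen after seeing the data.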

Additional observations from a re-analysis of the deposited data

Results flagged for a closer look

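With all arrays in, TSPAN8, a tetraspanin that partners claudins, was the only gene of the 7 other junction lists whose change at 6 against 2 weeks differed between the lines by test. The line difference in change was 3.43 ± 0.42 (adjusted p = 0.0037, limma on 12 arrays), from a rise of 2.92 ± 0.35 in SUM225 (adjusted p = 0.031). Without SUM225 2-week replicates 2 and 3 these were 3.11 and 2.60, and TSPAN8 was then not the only gene of these lists called for the line difference. In SUM225 its mean was 8.60 at 6 weeks and 5.67 at 2 weeks. The DCIS.COM means were 3.23 at 6 weeks, against 3.74 at 2 weeks. Both lie far below the medians of all probe sets on these DCIS.COM arrays (5.42 to 5.67).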

How the results depend on the processing

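Of 28 calls of single genes, 1 probe set per gene kept 28, SAM 27, centering arrays on their median 24, quantile normalization applied again 21, all 18 arrays in 1 fit 18 and centering on the epithelial markers 16. Centering on the epithelial markers turned CLDN4 in SUM225 to -0.85 at 6 weeks and -0.81 at 10 weeks and CLDN3 in SUM225 to -0.79 at 10 weeks. The mean of all probe sets of a gene turned TJP1 in DCIS.COM to 0.06 at 6 weeks and 0.18 at 10 weeks, since its probe sets move apart. The cause of the other changes was not tested.

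Counts of genes called moved as follows, given without the share of all named genes called in each setting. They describe the fits, and whether they moved more than calls over all genes was not tested. In DCIS.COM at 6 against 2 weeks, 5 became 3 with median centering, 2 with epithelial centering, 2 with all arrays in 1 fit and 3 with the mean of probe sets, and 2 to 7 with 1 array left out. In DCIS.COM at 10 against 2 weeks, 5 became 3 with median centering, 3 with epithelial centering and 2 with all arrays in 1 fit, and 2 to 8 with 1 array left out. In SUM225 at 6 against 2 weeks, 3 became 0 with quantile normalization, 0 with epithelial centering, 6 with all arrays in 1 fit and 8 with SAM, and 0 to 7 with 1 array left out. In SUM225 at 10 against 2 weeks, 4 became 2 with quantile normalization, 0 with epithelial centering and 8 with SAM, and 0 to 7 with 1 array left out. Between the lines at 2 weeks, 0 became 1 with quantile normalization, 5 with all arrays in 1 fit, 4 with SAM and 1 without SUM225 replicates 2 and 3, and 0 to 6 with 1 array left out. Between the lines at 6 weeks, 6 became 3 with all arrays in 1 fit, and 5 to 6 with 1 array left out, and at 10 weeks the 5 became 3 to 6. The line difference in change at 6 against 2 weeks gave 0 to 5 with 1 array left out.

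The replicate numbers of the labels were not used to pair samples. Deviations of same-numbered arrays from their group means correlated at -0.52 to 0.35 within the lines. Between the lines they correlated at 0.05 to 0.63 at 2 weeks, 0.06 to 0.24 at 6 weeks and 0.07 to 0.20 at 10 weeks. Whether same-numbered arrays shared an effect was not tested. With the replicate block, 3 genes were called in DCIS.COM at 10 against 2 weeks, 5 in SUM225 at 6 against 2 weeks and 3 between the lines at 2 weeks. These counts stand without the share of all named genes called with the block, and they describe the fits only.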
